A study of Caenorhabditis elegans with 4 samples.

Results

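The unfolded protein response of the endoplasmic reticulum (ER) was followed through 9 genes, taken by name from a table of 19912 genes of C. elegans. They are the sensors ire-1, pek-1 and atf-6, the transcription factor xbp-1, and the ER chaperones and folding enzymes hsp-3, hsp-4, crt-1, cnx-1 and pdi-2, and all 9 were measured and passed the filter on low counts. RNA of whole N2 wild-type nematodes (var. Bristol), adults at 48 h after the fourth larval stage (L4), was sequenced in 4 libraries. Of these, 2 came from nematodes on agar plates with 100 nM arsenite and 2 from nematodes on plates with water as the solvent control, and both groups fed on heat-inactivated OP50 E. coli. The question of this comparison was which messenger RNAs differ after exposure to a low dose of arsenite. No source used here says whether replicates are separate cultures. The p-values below therefore cover the spread between these samples alone, which may be technical. Summed gene counts were 45541614 and 50472338 in the arsenite libraries and 47577505 and 44263387 in the controls. Markers of the adult hermaphrodite were present, with summed levels of the yolk genes vit-1 to vit-6 of 20737 and 23349 RPKM (reads scaled by transcript length and by the library's mapped reads) with arsenite and 19648 and 21664 RPKM in controls. By contrast, 7 sperm genes summed to 1.20 and 0.874 RPKM with arsenite and 1.11 and 0.934 RPKM in controls, and msp-10 among them had no reads in any library.

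Proteins of the secretory pathway fold in the ER lumen with the help of chaperones and of enzymes that form disulfide bonds. When unfolded proteins accumulate, 3 sensors in the ER membrane respond. IRE-1 is a kinase and endoribonuclease that cuts a short intron out of xbp-1 messenger RNA, so that the active XBP-1 transcription factor is made. PEK-1, the orthologue of mammalian PERK, phosphorylates the translation factor eIF2alpha and slows protein synthesis, and ATF-6 is a membrane-bound transcription factor that is released by cleavage, as known from mammals. Transcripts of chaperones, above all hsp-4, are classical targets of this response in C. elegans, and an hsp-4 reporter is widely used to read it out.

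Levels per length spanned a wide range and kept the same order in all 4 libraries. Calreticulin, crt-1, was the most abundant of the 9 genes, with 852 and 847 RPKM with arsenite and 842 and 821 RPKM in controls, and by its mean it ranked 84 among the 19912 genes. It was followed by pdi-2, a protein disulfide isomerase that is also a subunit of collagen prolyl 4-hydroxylase, with 651 to 701 RPKM over the 4 libraries (rank 123). The BiP orthologue hsp-3 lay between 354 and 387 RPKM (rank 221) and its paralogue hsp-4 between 187 and 191 RPKM (rank 466). Next came xbp-1 with 133 to 140 RPKM and calnexin, cnx-1, with 112 to 124 RPKM. The sensors closed the order, with 48.7 to 56.4 RPKM for ire-1, 13.8 to 15.4 RPKM for pek-1 and 10.7 to 11.99 RPKM for atf-6, which ranked 7025. No range of a gene overlapped that of its neighbour in this order. Within a library, crt-1 exceeded atf-6 by 76.3- and 79.3-fold with arsenite and by 70.3- and 75.6-fold in controls. Together the 5 chaperones and folding enzymes summed to 28.1 and 28.6 times the RPKM of the 3 sensors with arsenite, and to 26.5 and 30.0 times in controls, with both arsenite values between those of the controls.

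**Figure D1:**
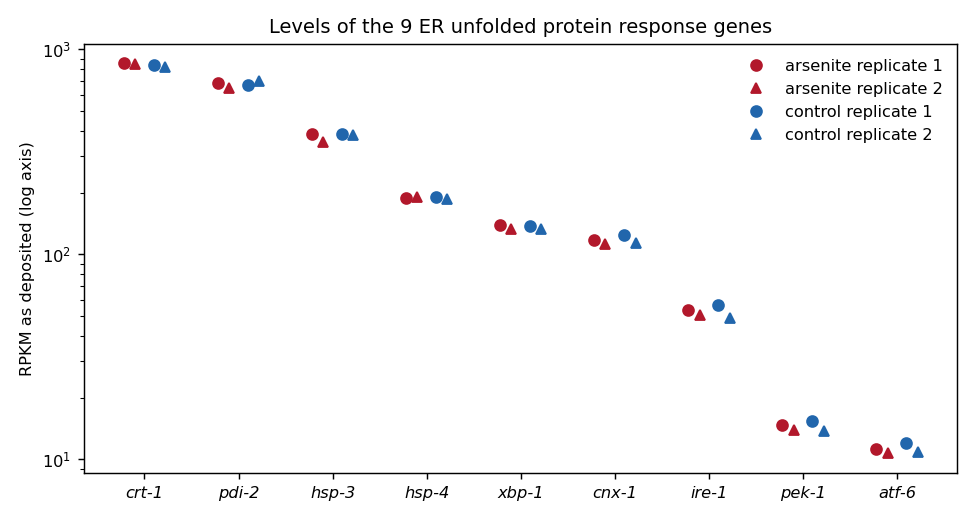
RPKM as deposited (log axis) of the 9 genes, ordered by mean level, with 1 point per library, arsenite in red and control in blue. Levels fall from 821 to 852 RPKM for crt-1 to 10.7 to 11.99 RPKM for atf-6, and the 4 points of each gene lie close together.

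Exposure to arsenite left the transcripts of all 3 sensors within the spread of the controls. For ire-1, the counts after normalization with TMM (trimmed mean of M-values, which scales libraries to each other) were 5786 and 5642 with arsenite and 5935 and 5264 in controls. Both arsenite libraries thus lay between the controls, and control replicate 2 was the lowest of the 4. The log2 fold change (arsenite over control, given with its standard error, SE) of ire-1 was 0.029 (± 0.070 SE, 95% interval from -0.13 to 0.18, with a quasi-likelihood adjusted p of 0.971 from edgeR over all genes), whereas control replicate 1 exceeded control replicate 2 by 0.17 on the log2 scale. Without control replicate 1 the value was 0.12, and without control replicate 2 it was -0.055. For pek-1, normalized counts were 1755 and 1689 with arsenite and 1774 and 1632 in controls, a log2 change of 0.016 (± 0.074 SE, 95% interval from -0.15 to 0.18, with a quasi-likelihood adjusted p of 0.987). Here again the arsenite libraries lay between the controls. The least abundant sensor, atf-6, had normalized counts of 875 and 857 with arsenite and 909.7 and 847 in controls. Its log2 fold change of -0.021 (± 0.081 SE, 95% interval from -0.20 to 0.16, with a quasi-likelihood adjusted p of 0.982) carried the largest error of the 9 genes, at the lowest read counts, 792 to 954 per library.

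The transcript of xbp-1 did not differ between the groups beyond the error. Its normalized counts were 12259 and 11949.9 with arsenite and 11683 and 11585 in controls, so that both arsenite libraries lay above both controls on this scale, as in 17.1% of all genes tested. In deposited RPKM the groups overlapped, with 139.6 and 132.8 with arsenite and 137.3 and 132.5 in controls. The log2 fold change was 0.057 (± 0.057 SE, 95% interval from -0.071 to 0.19, with a quasi-likelihood adjusted p of 0.93), and it was 0.018 with scaling of the libraries by total counts alone. The deposited tables list a pair of transcripts for xbp-1, whose lengths, as implied by counts and RPKM, are 1242 and 1432 nt and differ by 190 nt. The shorter one had 5771 and 6090 reads with arsenite and 5933 and 5253 in controls, and the longer one 6109 and 6418 reads with arsenite and 6319 and 5585 in controls. Reads in exons common to both enter both counts, which are therefore not independent. The gene count of xbp-1 is their sum, so that such a read enters it 2 times. With the most-read transcript alone the log2 fold change of the gene was 0.052. The ratio of the shorter to the longer transcript in RPKM was 1.09 and 1.09 with arsenite and 1.08 and 1.08 in controls. Their log2 fold changes were 0.067 and 0.057 (quasi-likelihood adjusted p of 0.876 and 0.897 over 17509 transcripts). Which of them, if either, carries the intron removed by IRE-1 is not given in the sources used here, so the tables give the amount of xbp-1 RNA and not its processing by IRE-1.

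The BiP orthologues hsp-3 and hsp-4, HSP70 chaperones of the ER lumen, did not differ between the groups beyond the error either. The normalized counts of hsp-4 were 13754 and 14162 with arsenite and 13459.9 and 13502 in controls. Both arsenite libraries lay above both controls on this scale, as in 17.1% of all genes tested. In deposited RPKM the groups of hsp-4 overlapped, with 189.1 and 190.1 with arsenite and 191.0 and 186.6 in controls. Its log2 fold change was 0.050 (± 0.058 SE, 95% interval from -0.078 to 0.18, with a quasi-likelihood adjusted p of 0.942), and 0.011 with scaling by total counts alone. The normalized counts of hsp-3 were 33892.5 and 31938.5 with arsenite and 32987 and 33262 in controls, with a log2 change of -0.0092 (± 0.063 SE, 95% interval from -0.15 to 0.13, with a quasi-likelihood adjusted p of 0.99). Here arsenite replicate 1 was the highest and arsenite replicate 2 the lowest of the 4 libraries. The ratio of hsp-4 to hsp-3 in RPKM was accordingly 0.491 in arsenite replicate 1 and 0.537 in arsenite replicate 2, against 0.494 and 0.491 in controls. Only arsenite replicate 2 stood apart in this ratio, and no test was run on it. Reads that matched both paralogues equally well were not counted by the authors, and how many there were is not known.

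Calreticulin, calnexin and pdi-2 serve the folding of glycoproteins and of proteins with disulfide bonds. The largest fitted difference of the 9 genes was that of crt-1, whose normalized counts were 39503 and 40210.2 with arsenite and 37821 and 37864 in controls. Both arsenite libraries lay above both controls, as in 17.1% of all genes tested. The log2 fold change of crt-1, 0.075 (± 0.061 SE, 95% interval from -0.062 to 0.21), had a quasi-likelihood adjusted p of 0.898. It was 0.035 with scaling by total counts alone and 0.094 after a correction for transcript length. For cnx-1, a membrane-bound lectin chaperone, normalized counts were 8219 and 7977 with arsenite and 8398 and 7846 in controls, and the log2 fold change was -0.0044 (± 0.061 SE, 95% interval from -0.14 to 0.13, with a quasi-likelihood adjusted p of 0.994). For pdi-2, they were 111526 and 108725 with arsenite and 106084 and 113758 in controls, and the log2 fold change was 0.0027 (± 0.072 SE, 95% interval from -0.16 to 0.16, with a quasi-likelihood adjusted p of 0.995). In both genes the arsenite libraries lay between the controls. The table holds 3 transcripts of pdi-2 with nearly equal counts, 35990 to 36049 in arsenite replicate 1 and 35416 to 35513 in control replicate 2, for example. The gene count of pdi-2 is their sum, so that a read in an exon common to them enters it 3 times. With the most-read transcript alone its log2 fold change was 0.0021.

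**Figure D2:**
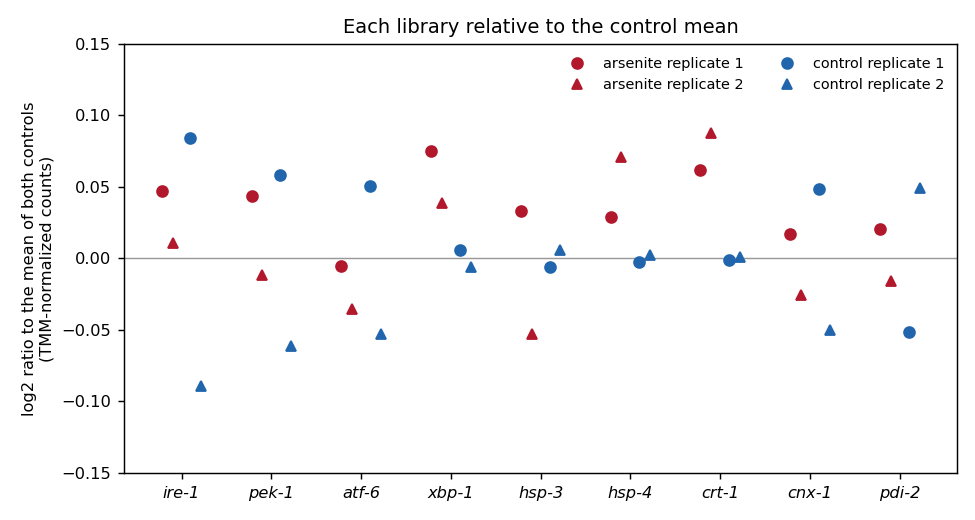
Log2 ratio of TMM-normalized counts in each library to the mean of both controls, for sensors, xbp-1, chaperones and folding enzymes, with arsenite in red and control in blue. All points lie between -0.089 (ire-1 in control replicate 2) and 0.088 (crt-1 in arsenite replicate 2), and only in xbp-1, hsp-4 and crt-1 do both arsenite points lie above both control points.

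Across the 9 genes, log2 fold changes ran from -0.021 to 0.075, with a median of 0.016 beside 0.0055 over all 13776 genes tested. The difference was positive in 6 and negative in 3, while 51.8% of all genes tested had a positive one. Every 95% interval lay between -0.20 and 0.21, that is, between 0.870- and 1.16-fold. The distance from the estimate to the edge of its interval had a median of 0.14 for the 9 genes and of 0.23 over all genes. Of all genes, 21.5% had an interval within the same outer bounds. These bounds were taken from the 9 genes themselves, which lie within them by construction, so the share sets no comparison. In 6 of the 9 genes the controls differed from each other by more than the fitted difference between the groups. The share of all genes in which they did so was not computed, so this count is no result particular to these genes. The quasi-likelihood test called 0 of the 9 genes at an adjusted p under 0.05, as it did over all genes (0.0%), and 0 of the 9 had an unadjusted p under 0.05, beside 7.21% of all genes (2.16% higher and 5.05% lower with arsenite). None was called by edgeR's exact test, which called 1.01% of all genes (0.392% higher and 0.617% lower), by its likelihood ratio test (1.14%, with 0.421% higher and 0.719% lower) or by DESeq2 (0.218%). The arsenite pair lay wholly above the control pair in 3 of the 9 genes, xbp-1, hsp-4 and crt-1, and wholly below it in 0, while over all genes the shares were 17.1% and 19.1%. This count was 1, crt-1 alone, both with scaling by total counts and in the deposited RPKM, alternatives that were chosen after the data had been seen. Of the 12 transcripts of these genes, 0 were called by the quasi-likelihood test or the exact test over all transcripts (0.0% and 0.965%).

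**Figure D3:**
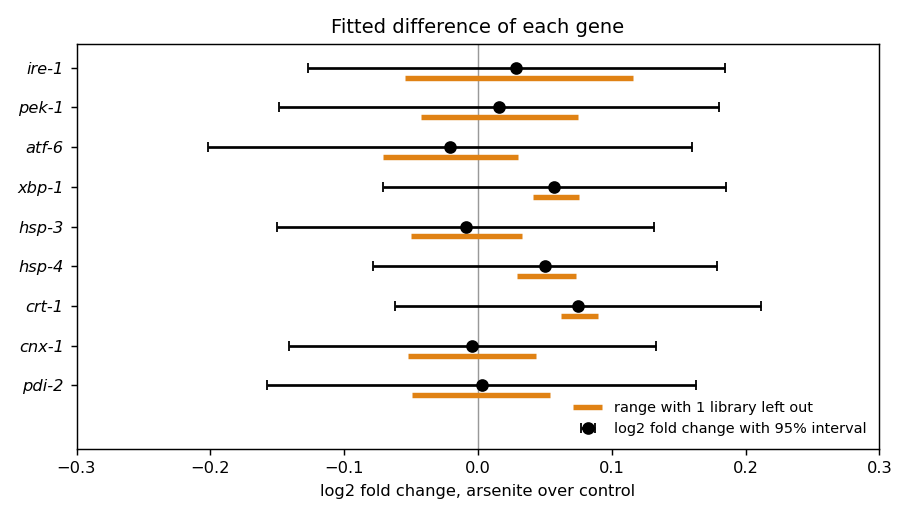
Log2 fold change, arsenite over control, of each gene with its 95% interval (black) and its range when 1 library was left out (orange). Every interval spans 0 and lies between -0.20 and 0.21. With 1 library left out, only xbp-1, hsp-4 and crt-1 kept 1 direction. Their groups do not overlap in normalized counts, which nearly fixes the sign whichever library is dropped. The kept direction is therefore no separate check, and its frequency among all genes was not computed.

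The genes lie on chromosome II (hsp-4, from 7350119 to 7352518, and ire-1, from 8112243 to 8124910), III (xbp-1, from 4193809 to 4195358, and cnx-1, from 9814364 to 9817137), V (crt-1, from 6098992 to 6100542) and X of WBcel235. On X lie pdi-2, from 4524155 to 4526536, hsp-3, from 6089033 to 6091785, pek-1, from 11410176 to 11414887, and atf-6, from 12480948 to 12484904. The libraries do not mark the strand of a transcript. In the Ensembl annotation, exons of crt-1 share 92 nt with smut-1 on the opposite strand, those of cnx-1 share 49 nt with ZK632.14 and those of ire-1 4 nt with unc-105, also on the opposite strand, while pdi-2 shares 18 nt with the non-coding C07A12.19 on its own strand. The exons of the other 5 overlap no other gene there.

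Genes in 5 further lists, of the ER, of its stress response and of HSP70 and HSP90 outside the ER, did not pass the tests either. The abu genes, a list of their own, are described further below and are not counted here. Of 66 genes in these 5 lists, 62 were found in the table and 60 tested. With adjustment over all genes, 0 of the 60 passed edgeR's quasi-likelihood, exact or likelihood ratio test or DESeq2. Over all genes these tests called 0.0%, 1.01%, 1.14% and 0.218%, so that a count of 0 among 60 genes is near the background. None of the 60 had an unadjusted p under 0.05, beside 7.21% of all genes. Among 18 ER chaperones and folding enzymes the median log2 fold change was -0.0040. The smallest p in that list belonged to dnj-29, a DnaJ protein related to Sec63 of the translocation channel, with normalized counts of 13658 and 13287 with arsenite and 12710.3 and 12793 in controls and a log2 change of 0.079 (± 0.058 SE). It was followed by uggt-2, which had only 27 and 24 reads with arsenite and 41 and 23 in controls, and a log2 change of -0.34 (± 0.31 SE). The third, ZK973.11, a thioredoxin-domain protein, had a log2 change of 0.063 (± 0.058 SE).

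Of 18 genes of ER-associated degradation, which returns misfolded proteins to the cytosol, 15 were tested and had a median log2 fold change of 0.027. Here npl-4.2, a cofactor of the ATPase CDC-48, had normalized counts of 1085 and 1043 with arsenite and 974 and 1014 in controls, a log2 change of 0.098 (± 0.076 SE). For sel-1, a partner of the ubiquitin ligase HRD1, and cdc-48.1, the ATPase itself, the log2 fold changes were 0.040 and 0.044 (standard errors 0.059 and 0.067). Of 17 genes of translocation into the ER and glycosylation, 16 were tested, with a median of 0.021. The translocon-associated trap-3 had the smallest p of all 60 genes, 0.0865, with normalized counts of 7438 and 6799 with arsenite and 6273 and 6744 in controls and a log2 change of 0.13 (± 0.068 SE, with a quasi-likelihood adjusted p of 0.76). Both arsenite libraries lay above both controls there, as in 17.1% of all genes tested, and a choice by smallest p favours such genes. In emo-1, the gamma subunit of the Sec61 channel, and in trap-4 the log2 fold changes were 0.13 and 0.091 (standard errors 0.078 and 0.091). Control replicate 1 was the lowest library in both, with 3490.1 normalized counts for emo-1 and 5847 for trap-4. Without control replicate 2, where the spread came from the arsenite libraries alone, edgeR's exact test passed 2 genes of this list and its quasi-likelihood test 0. These were trap-4, at 0.26 without that library and -0.059 without control replicate 1, and Y38F2AR.9, a Sec61 beta subunit, at 0.45 and -0.19. Over all 4 libraries the log2 fold change of Y38F2AR.9 was 0.096 (± 0.16 SE). In both genes the direction turned without control replicate 1 and stayed positive without control replicate 2.

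Around the eIF2 arm and the RNA ligase that joins the cut ends of xbp-1 RNA, 6 of 6 genes were tested and had a median log2 fold change of 0.039. The eIF2alpha gene Y37E3.10, whose product is the substrate of PEK-1, had normalized counts of 7013 and 6755 with arsenite and 6674 and 6174 in controls, a log2 change of 0.099 (± 0.063 SE). The orthologue of mammalian ATF4, atf-5, had 1552 and 1595 with arsenite and 1469 and 1473 in controls, a log2 change of 0.097 (± 0.069 SE). In both the arsenite libraries lay above both controls, as in 17.1% of all genes tested. Their adjusted p-values were 0.827 and 0.865 in the quasi-likelihood fit. These genes were named for the smallest p-values of the list, a choice that favours genes without overlap. For the ligase rtcb-1 the log2 fold change was 0.054 (± 0.085 SE). Outside the ER, 5 of 7 HSP70 and HSP90 genes were tested, with a median of 0.051. The cytosolic HSP70 hsp-1 and the mitochondrial HSP70 hsp-6, relatives of hsp-3 and hsp-4, had log2 fold changes of 0.082 and 0.051 (standard errors 0.081 and 0.068). For the HSP90 gene daf-21 the value was 0.053 (± 0.069 SE).

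**Figure D4:**
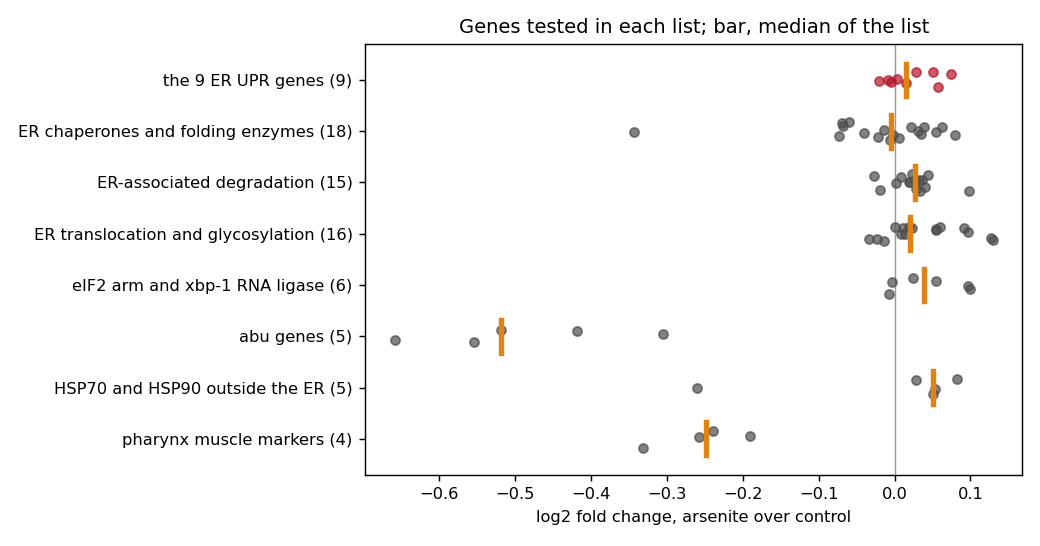
Log2 fold change, arsenite over control, of each tested gene in the lists, with the number of genes tested in parentheses and the median as an orange bar. Medians of the ER lists lie between -0.0040 and 0.039, whereas all 5 abu genes and all 4 pharynx markers lie below 0.

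The abu genes are named for their activation when the unfolded protein response is blocked. Of 15 listed, 14 were found and only the 5 that passed the filter on low counts were tested. Their log2 fold changes had a median of -0.52 (lowest -0.66, highest -0.31). With adjustment over all genes 0 of the 5 passed edgeR's quasi-likelihood test (0.0% of all genes), while 5 had an unadjusted p under 0.05 and a lower level with arsenite, beside 5.05% of all genes. In these 5 the arsenite pair lay wholly below the control pair, beside 19.1% of all genes, but genes that passed the filter through higher control counts would do so too. The exact test called 1 of the 5 (0.617% of all genes were called lower), as did the likelihood ratio test (0.719%) and DESeq2 (0.16%). This gene was abu-14, entered as pqn-95, with normalized counts of 1216 and 1275 with arsenite and 1633 and 1697 in controls. Its log2 fold change was -0.42 (± 0.072 SE, adjusted p of 0.000990 by the exact test and of 0.192 by edgeR's quasi-likelihood test). The quasi-likelihood test did call it without a filter on low counts (adjusted p of 0.0203), with the replicate number as a block (0.0195) and without control replicate 1 (0.00635). With 1 library left out, where a group of 1 library takes its spread from the other group, the exact test called it without control replicate 1 (log2 fold change -0.45) and without control replicate 2 (-0.39). It did not call it without arsenite replicate 1 (-0.38, adjusted p of 0.235) or without arsenite replicate 2 (-0.45, 0.299).

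Many abu genes are expressed in the pharynx. Some markers of several tissues had lower levels with arsenite, without passing edgeR's quasi-likelihood test. Other lists leaned higher, with positive log2 fold changes in 6 of 6 yolk, 6 of 6 germline and 4 of 5 tested embryo markers. The medians of these lists were 0.15, 0.058 and 0.020. In 3, 2 and 3 of their genes the lower normalized count with arsenite exceeded the higher one of the controls, beside 17.1% of all genes. Their summed RPKM overlapped between the groups. Intestinal markers were mixed, with 2 positive and 4 negative values. In 4 of 4 pharyngeal muscle markers both arsenite libraries lay below both controls in normalized counts, beside 19.1% of all genes tested. Their summed level was 98.5 and 91.7 RPKM with arsenite and 118 and 116 RPKM in controls. The same order held in 4 of 6 neuronal markers (sums of 241 and 232 RPKM with arsenite, 248 and 249.8 RPKM in controls), in 3 of 5 of body wall muscle (839 and 789 RPKM with arsenite, 878 and 895 RPKM in controls) and in 3 of 5 of epidermis (178 and 158 RPKM with arsenite, 168 and 173 RPKM in controls). The epidermal collagens rol-6 and col-10 had log2 fold changes of -0.59 and -0.54, rab-3 and unc-10 of neurons -0.33 and -0.29, and myo-3 of body wall muscle -0.25. These were the lowest of their lists. Positive values in these 3 lists were those of col-19 (0.14) in epidermis, unc-119 (0.0050) and snb-1 (0.0083) in neurons, and unc-27 (0.048) in body wall muscle. For myo-2 and myo-1 (let-75) of the pharynx they were -0.33 and -0.26. Of all markers 0 passed edgeR's quasi-likelihood test, with adjusted p of 0.202 for myo-2 and 0.277 for myo-1, whereas the exact test called myo-2, myo-1 and col-10, and DESeq2 called 1 pharynx marker. Over all genes the exact test called 0.617% lower and DESeq2 0.16% lower. The part of these markers in the abu values was not tested, and in whole animals fewer cells of a type and less RNA per cell cannot be told apart.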

How the data were processed

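Whole nematodes were sequenced in 4 libraries, 2 arsenite and 2 control. The authors mapped single reads with Bowtie to the genome and an exon junction database, retained only reads with 1 unique position and assigned these to RefSeq transcripts. CASAVA and WBcel235 are also named in the submitters' processing notes, without versions. The authors deposited raw counts per transcript and per gene, and a gene's count equals the sum over its transcripts in 19912 of 19912 genes. The deposited RPKM values are scaled by length and depth, and served for levels and for deriving lengths and the reads behind them, 30583832 to 35218389 per library. Precision is limited where counts are low.

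The quasi-likelihood test of edgeR 4.0.16 under R 4.3.3 was run on these gene counts (filterByExpr with minimum count 10 and minimum total 15, TMM, estimateDisp, glmQLFit, glmQLFTest). Condition was its single term, and p-values were adjusted by Benjamini-Hochberg over all genes, at 0.05. Normalized counts were brought to the mean TMM-scaled library size. The SE was derived from the F statistic, as the absolute log2 fold change divided by its square root. Scripts were tested on simulated data. Coordinates are those of the Ensembl annotation of WBcel235. Alternatives were the tests of DESeq2 1.42.0 and 2 others of edgeR (exact, likelihood ratio), other scalings and filters, robust dispersion, a block for the replicate number, loess-corrected length (span 0.5), the most-read transcript, and each library left out. DESeq2 adjusted p-values that were missing were counted as not passing. The 9 genes and all lists were chosen with earlier results of these data known. Named besides the 9 genes were up to 3 per list with the smallest p and any called gene, as well as hsp-1 and hsp-6. For the abu list, counts alone were planned, and abu-14 was named after its values were seen, as were Y38F2AR.9 and the single markers.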

Additional observations from a re-analysis of the deposited data

How the results depend on the processing

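None of the 9 genes passed an adjusted p of 0.05 under any of the 20 alternatives, in which their log2 fold changes stayed within 0.12 of 0 and the smallest adjusted p was 0.362 (ire-1 without control replicate 1). No transcript of theirs passed in 7 fits of the transcript table. Of 180 values under alternatives, 154 kept their direction and 26 did not. The directions of hsp-3 and cnx-1 turned with the length correction (0.0080 and 0.016) and with the replicate block and length correction together (0.0077 and 0.017), those of ire-1, pek-1 and pdi-2 with library size only (-0.012, -0.025 and -0.035), and that of pdi-2 with a CPM of at least 1 in 2 libraries (-0.0011). With 1 library left out the ranges were -0.050 to 0.033 (hsp-3), -0.055 to 0.12 (ire-1), -0.043 to 0.075 (pek-1), -0.071 to 0.030 (atf-6), -0.052 to 0.043 (cnx-1) and -0.049 to 0.054 (pdi-2), with turned values of -0.0095 for pek-1 and -0.014 for pdi-2 by the exact test without arsenite replicate 1. Over all genes 0 were called, but 54 higher and 85 lower by the exact test, 58 and 99 by the likelihood ratio test, 8 and 22 by DESeq2, 35 and 44 without a low-count filter, and 1 to 130 higher and 1 to 146 lower with 1 library left out. Leaving out arsenite 1, arsenite 2, control 1 or control 2, in this order, gave 100, 6, 121 and 1 higher and 58, 8, 72 and 1 lower by the quasi-likelihood test, and 102, 4, 130 and 112 higher and 60, 7, 82 and 146 lower by the exact test. The replicate block gave 30 and 50, and 24 and 52 with the length correction. The cause was not tested. The labels do not say whether equal replicate numbers mark pairs. Deviations of same-numbered libraries had a correlation of 0.052, which cannot settle this with so few libraries. Among the 9 genes and the pathway lists the block changed the call of abu-14 alone. In the abu list 1 gene was called by DESeq2, by the likelihood ratio and exact tests, without a low-count filter, with the block, and with the block and length correction, and 0 to 1 with 1 library left out. In the translocation list 0 to 2 were called with 1 library left out.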
